A study of Mus musculus with 10 samples.

Results

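The genes described here are 30 genes of cholesterol synthesis, of its control by SREBP2 and of sterol uptake, transport and esterification, measured in mouse liver. They were picked by gene name from the 54532 genes of the deposited table, by what they are known to do. All 30 were found, and 29 of them were among the 13261 genes with enough reads to be compared. Bulk RNA sequencing of poly-A RNA was available for 10 livers, 5 labelled ASK1f/f and 5 labelled ASK1+hep, and each liver came from a different mouse. All animals, controls included, were on a C57BL/6J background and homozygous for a murine ASK1 cDNA behind a lox-stop-lox cassette in the ROSA26 locus. In ASK1f/f mice the stop cassette was intact, whereas in ASK1+hep mice Alb-Cre, a recombinase driven by the albumin promoter and hence active in hepatocytes, had excised it. ASK1, encoded by Map3k5, is a stress-activated kinase upstream of JNK and p38. Mice of both genotypes were 6 weeks old when the high-fat diet (HFD) began, ate it for 7 weeks and went without food for the last 5 h, so no chow-fed liver entered the comparison. Levels are FPKM as deposited, in which reads are divided by the length of the gene and by a size given to the library. These sizes match median-ratio size factors, which level libraries by the median ratio of their genes and not by their total reads. Relative to the reads on genes, the size ran from 0.890 in ASK1+hep replicate 3 to 1.06 in ASK1f/f replicate 1, and a smaller size gives a higher FPKM. Genotypes were compared on log2(FPKM + 1), a scale on which changes at low FPKM come out too small, and a log2 fold change is always ASK1+hep minus ASK1f/f.

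Cholesterol is built from acetyl-CoA. Acetoacetyl-CoA and acetyl-CoA are condensed to HMG-CoA by HMG-CoA synthase (Hmgcs1), mevalonate is then phosphorylated and decarboxylated to isoprenoid units, a pair of farnesyl groups is joined to squalene, and squalene is closed to lanosterol and trimmed to cholesterol by a chain of sterol enzymes. The transcription factor SREBP2 (Srebf2) drives most of these genes. When sterols are low, SCAP escorts SREBP2 from the endoplasmic reticulum to the Golgi, where it is cleaved and set free, and when sterols are plentiful the INSIG proteins hold SCAP and SREBP2 back. Freed SREBP2 binds sterol regulatory elements in its target promoters, usually next to sites for NF-Y (CCAAT boxes) and Sp1 (GC boxes). The liver is a main site of both cholesterol synthesis and lipoprotein uptake.

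Promoter windows of 250 bases before the RefSeq start on GRCm38.p6 were at hand for 25 of the 30 genes. The letters TCACNCCA, a sterol regulatory element-like pattern, were searched on both strands together with CCAAT and GGGCGG, and 0 matches of different patterns overlapped in these windows. TCACNCCA was present in 3 of the 25 windows (12.0%), against 3.67% of all 32851 windows of the same length. Those 3 genes were Hmgcs1, Msmo1 and Srebf2. CCAAT stood in 21 of 25 (84.0%) against 33.8% of all windows, GGGCGG in 18 of 25 (72.0%) against 32.7%, and both in 16 of 25 (64.0%) against 11.0%. The windows were also rich in G and C, with a median of 62.4% against 52.4% over all windows, and GGGCGG is itself made of these letters. A match describes the letters only, and a window without a match says no more than that these letters are not in it. The following windows show the first enzyme of the list, an enzyme with 5 CCAAT boxes, SREBP2 itself, and the paired inhibitors Insig1 and Insig2. Where RefSeq lists more than 1 start, as for 4 of the 25 genes, the window nearest to the start of the deposited gene model was used. The shares over all windows count every listed start, so they are not on the same footing as shares with 1 window per gene. Letters run 5′ to 3′ along the gene's strand, capitals mark matches to any of the 3 patterns on either strand, and the bases that lie inside the deposited gene model (88 for Srebf2 and 49 for Insig1) are left out.
Hmgcs1 (chr13:119690101-119690350, plus strand): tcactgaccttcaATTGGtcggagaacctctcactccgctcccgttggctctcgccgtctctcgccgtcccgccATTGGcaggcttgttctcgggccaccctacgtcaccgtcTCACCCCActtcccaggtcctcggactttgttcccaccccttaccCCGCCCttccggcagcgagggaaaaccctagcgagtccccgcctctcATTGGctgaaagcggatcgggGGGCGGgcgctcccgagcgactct
Mvk (chr5:114444019-114444268, plus strand): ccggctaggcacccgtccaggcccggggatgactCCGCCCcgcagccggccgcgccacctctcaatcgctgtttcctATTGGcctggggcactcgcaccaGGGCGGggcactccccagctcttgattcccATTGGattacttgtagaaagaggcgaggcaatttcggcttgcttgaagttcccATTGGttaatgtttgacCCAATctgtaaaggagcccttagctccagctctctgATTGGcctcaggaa
Srebf2 (chr15:82147019-82147180, plus strand): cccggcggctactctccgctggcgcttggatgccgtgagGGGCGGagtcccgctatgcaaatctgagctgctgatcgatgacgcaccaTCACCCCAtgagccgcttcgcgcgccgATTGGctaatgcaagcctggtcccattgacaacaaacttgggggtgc
Insig1 (chr5:28071162-28071362, plus strand): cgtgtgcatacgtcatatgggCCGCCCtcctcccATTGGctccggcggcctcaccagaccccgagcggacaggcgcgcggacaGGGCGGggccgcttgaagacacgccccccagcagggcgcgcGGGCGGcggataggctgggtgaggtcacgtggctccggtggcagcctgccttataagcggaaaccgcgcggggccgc
Insig2 (chr1:121332590-121332839, minus strand): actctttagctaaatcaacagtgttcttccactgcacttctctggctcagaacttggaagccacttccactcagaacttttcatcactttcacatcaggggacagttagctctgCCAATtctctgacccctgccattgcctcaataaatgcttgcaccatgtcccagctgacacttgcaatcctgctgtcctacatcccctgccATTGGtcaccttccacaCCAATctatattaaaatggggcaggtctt
In Hmgcs1 the sterol regulatory element-like match began 137 bases before the start, and CCAAT boxes on the reverse strand began 237, 176 and 45 bases before it. Srebf2 carried its match at 162 bases before the start, with a CCAAT box following at 135. The Insig1 window had 3 GC boxes and 1 CCAAT box and was 72.8% G and C. The Insig2 window shown had 3 CCAAT boxes, no GC box in these letters, and was 47.2% G and C. RefSeq lists 2 further Insig2 starts, 4565 and 4911 bases inside the deposited gene, whose windows had 1 GC box and 0 CCAAT boxes each and were 56.8% and 69.6% G and C, so the contrast with Insig1 holds for the window shown and not for every Insig2 start.

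The targeted gene was examined first. Map3k5 stood at 6.74, 6.88, 5.77, 4.71 and 19.8 FPKM in ASK1f/f livers, listed by replicate from 1 to 5 under their labels, and at 16.4, 11.1, 7.68, 12.4 and 15.2 FPKM in ASK1+hep livers. Map3k5 in the library labelled ASK1f/f replicate 5 therefore went against its label. With that library the genotypes differed by 0.60 on the log2 scale (SE 0.32, limma adjusted p = 0.813), and without it by 0.92 (SE 0.20, limma adjusted p = 0.279). Fgf21, the secreted hepatic factor on which the study centres, did not go against the label, since it was at 3.21 FPKM in that library, 2.46 to 4.74 FPKM in the other ASK1f/f livers and 7.40 to 30.1 FPKM in ASK1+hep livers. Reads of the cDNA and of the endogenous gene were not told apart. ASK1+hep replicate 3 stood apart in another way, since its median correlation with livers of its own label was 0.967 (0.975 to 0.988 in the other livers) and Cps1, a urea cycle enzyme of hepatocytes, was at 94.9 FPKM there against 295 to 616 FPKM elsewhere. Both libraries were kept under their labels. Libraries held 13367742 to 16163378 reads on genes. The liver markers Alb (14692 to 25083 FPKM), Ttr, Cps1 and Cyp2e1 were abundant in all livers, adipocyte markers summed to at most 0.053 FPKM with Lep at 0, and cholangiocyte markers summed to 1.61 to 3.44 FPKM. Kupffer cell markers summed to 83.6 to 143 FPKM in ASK1f/f and 53.6 to 131 FPKM in ASK1+hep livers, with 6 of 6 lower in ASK1+hep and 0 of 6 past the adjusted threshold. Other lists shifted too, with 4 of 5 endothelial, 4 of 6 stellate cell and fibroblast, 3 of 4 cholangiocyte and 5 of 8 hepatocyte markers lower. Of the 3 blood markers 2 were higher, and of the 3 lymphocyte and neutrophil markers compared 2 were higher. None of these passed the adjusted threshold, and the part of any cell type in the results was not tested. In bulk tissue, fewer cells of a type and less RNA per cell cannot be told apart. Xist was at or below 0.0129 FPKM and the Y-linked Ddx3y at 6.02 to 16.8 FPKM in all 10 livers.

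None of the 29 cholesterol genes differed between the genotypes past an adjusted p of 0.05 (limma, Benjamini-Hochberg over 13261 genes), where 0 of all 13261 genes were called (0%), and without ASK1+hep replicate 3 and the library labelled ASK1f/f replicate 5 the count was again 0 of 29. Fgf21 was among the genes not called (log2 fold change 2.06, limma adjusted p = 0.349), although its groups did not overlap. The paper's own differential expression analysis reports Fgf21 as strongly raised in ASK1+hep livers. A count of 0 called genes therefore does not show that the genotypes are alike. At an unadjusted p under 0.05, 1 of the 29 was higher in ASK1+hep livers, Hsd17b7, and 0 were lower. Over all genes, 765 (5.77%) passed that looser limit, 405 of them higher (3.05%) and 360 lower (2.71%), so 1 of 29 is near the background. Of the genes at that limit 52.9% were higher in ASK1+hep, and 31.5% when libraries were scaled by all reads in place of the deposited scaling. The groups overlapped for every one of the 29 genes, while they did not overlap for 114 of all genes (0.860%), 53 of them higher in ASK1+hep (0.400%) and 61 lower (0.460%). By sign alone 12 of the 29 had a log2 fold change above 0, against 48.1% of all genes. Scaled by all reads 8 of the 29 did, a count with no matching share over all genes at hand. That scaling also lowered the median of all genes, from -0.0065 to -0.052, so 48.1% is no background for the 8. With the deposited scaling, the median log2 fold change of the 29 was -0.059, and that of all genes was -0.0065. The plot of log2 fold changes shows how wide the intervals were. An interval covers the difference that 5 against 5 livers leave possible, and for Idi1, Aacs and Mvd it ran past a log2 fold change of 1 in one direction.

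**Figure D1:**
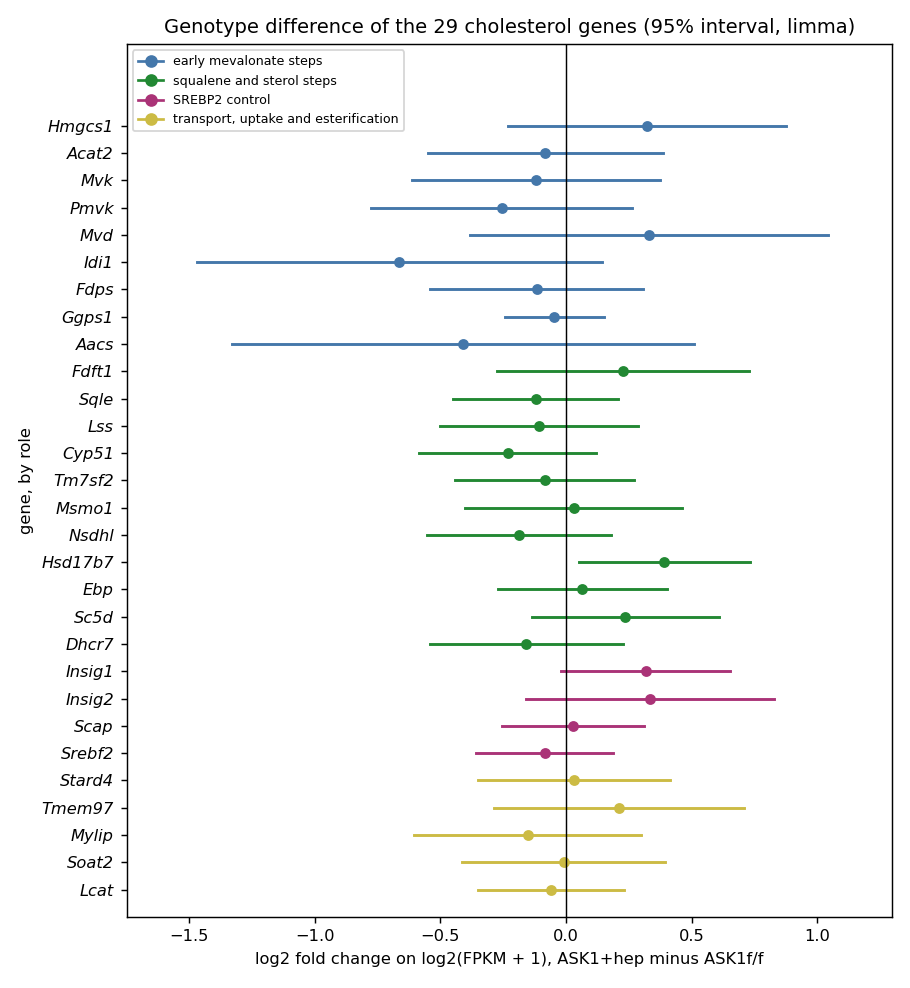
Log2 fold change (x axis, ASK1+hep minus ASK1f/f, on log2(FPKM + 1)) of 29 cholesterol genes, ordered by role (y axis), with points for the estimate and lines for the 95% interval from limma, n = 5 livers per genotype. The interval of Hsd17b7 lies above 0 before any adjustment, and the other 28 intervals include 0.

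SREBP2 and its escort had narrow intervals around 0. Srebf2 (ENSMUSG00000022463, chromosome 15, 82147181 to 82205379, plus strand), the master activator of the pathway, was at 12.1, 12.6, 11.2, 9.74 and 10.8 FPKM in ASK1f/f and at 11.3, 10.9, 13.2, 9.62 and 8.29 FPKM in ASK1+hep livers. Both the highest and the lowest of these values were from ASK1+hep livers. For Srebf2 the log2 fold change was -0.085 (SE 0.12, 95% interval -0.36 to 0.19, limma adjusted p = 0.881, exact permutation p = 0.516). Scap, the sterol-sensing escort, was at 23.3, 16.8, 16.1, 18.4 and 15.03 FPKM in ASK1f/f and at 18.5, 17.7, 20.2, 19.5 and 14.9 FPKM in ASK1+hep livers. The ASK1f/f livers reached higher, to 23.3 FPKM in replicate 1, while the lowest livers of the genotypes were close, and the log2 fold change was 0.027 (SE 0.13, limma adjusted p = 0.969, exact permutation p = 0.841), a sign that turned to -0.049 when scaled by all reads. Across the 10 livers Srebf2 and Scap each spanned a factor of 1.6 between lowest and highest.

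The paired inhibitors of SREBP2 release both had higher means in ASK1+hep livers, without passing the adjusted threshold. Insig1 (ENSMUSG00000045294, chromosome 5, 28071363 to 28078662, plus strand), itself a well-known SREBP2 target, was at 69.2, 43.3, 55.9, 71.2 and 56.5 FPKM in ASK1f/f and at 65.4, 59.4, 79.2, 80.8 and 82.7 FPKM in ASK1+hep livers. The 3 highest values were all from ASK1+hep livers, and the other ASK1+hep livers lay within the ASK1f/f range. Means were 59.2 ± 11.4 and 73.5 ± 10.4 FPKM (SD, n = 5 each), with a log2 fold change of 0.32 (SE 0.15, limma adjusted p = 0.813, exact permutation p = 0.0952). Insig2 (ENSMUSG00000003721, chromosome 1, 121304353 to 121332589, minus strand), which in liver is known for regulation apart from SREBP2, was at 25.7, 48.1, 24.0, 42.8 and 58.7 FPKM in ASK1f/f and at 55.6, 43.2, 51.2, 44.1 and 45.3 FPKM in ASK1+hep livers. Here the ASK1f/f livers were scattered and the ASK1+hep livers sat together, so that the SDs were 14.9 and 5.30 FPKM around means of 39.9 and 47.9 FPKM. The log2 fold change was 0.33 (SE 0.23, limma adjusted p = 0.813, exact permutation p = 0.286). Without the library labelled ASK1f/f replicate 5, the liver with the highest Insig2, it was 0.49, with an unadjusted limma p of 0.0368. Insig1 and Insig2 did not follow each other in single livers, as ASK1f/f replicate 2 had the lowest Insig1 but the fourth highest Insig2.

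**Figure D2:**
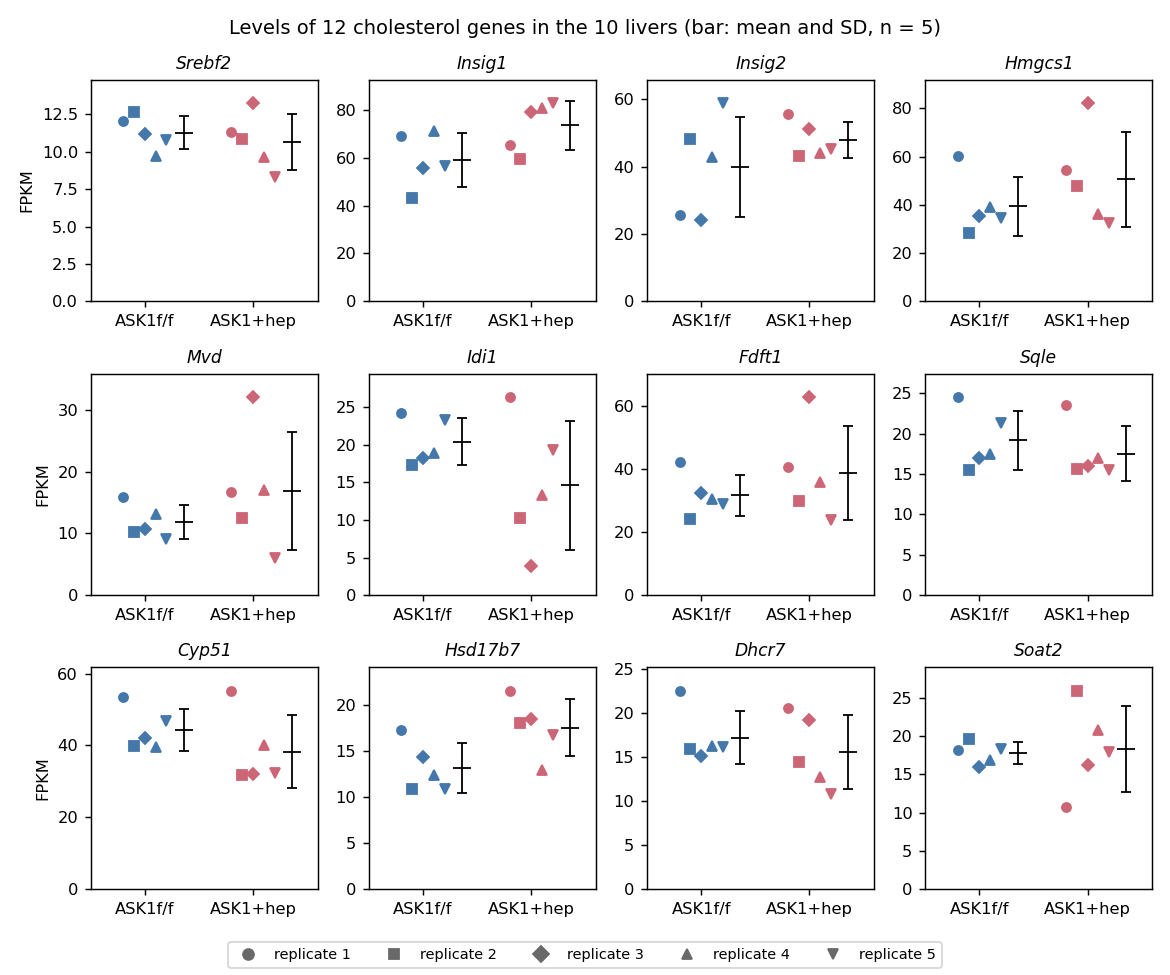
FPKM (y axes, each from 0) of 12 cholesterol genes in 10 livers, with ASK1f/f in blue and ASK1+hep in red on the x axis, 1 symbol shape per replicate number, and the black mark and bar for mean and SD (n = 5). Every panel shows overlapping groups, and ASK1+hep replicate 3 is highest for Hmgcs1 (82.0 FPKM), Mvd (32.0 FPKM) and Fdft1 (62.6 FPKM) but lowest for Idi1 (3.83 FPKM).

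Among the 9 genes of the early steps, from acetyl-CoA to isoprenoid diphosphates, 2 had a log2 fold change above 0 and 7 below, with a median of -0.12, and 0 passed the adjusted threshold. Hmgcs1 (ENSMUSG00000093930, chromosome 13, 119690379 to 119708260, plus strand), the cytosolic HMG-CoA synthase, was at 60.2, 28.1, 35.3, 39.0 and 34.6 FPKM in ASK1f/f and at 54.3, 47.8, 82.0, 36.3 and 32.5 FPKM in ASK1+hep livers. Single livers of each genotype reached well above the rest, ASK1f/f replicate 1 and ASK1+hep replicate 3. The log2 fold change was 0.32 (SE 0.25, limma adjusted p = 0.816, exact permutation p = 0.310), and 0.13 without ASK1+hep replicate 3. Mvd, the mevalonate diphosphate decarboxylase, was at 15.9, 10.2, 10.7, 13.1 and 9.09 FPKM in ASK1f/f and at 16.7, 12.4, 32.0, 17.0 and 6.05 FPKM in ASK1+hep livers. Both extremes belonged to ASK1+hep livers, replicate 3 at the top and replicate 5 at the bottom. Its log2 fold change of 0.33 (SE 0.33, limma adjusted p = 0.838, exact permutation p = 0.429) was 0.067 without ASK1+hep replicate 3.

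Idi1 (ENSMUSG00000058258, chromosome 13, 8885501 to 8892451, plus strand) is the isomerase that readies isopentenyl diphosphate for chain building, and it had the log2 fold change farthest from 0. It was at 24.2, 17.3, 18.3, 19.0 and 23.3 FPKM in ASK1f/f and at 26.3, 10.3, 3.83, 13.3 and 19.2 FPKM in ASK1+hep livers. ASK1+hep replicates 2, 3 and 4 lay below all ASK1f/f livers, whereas ASK1+hep replicate 1 was the highest of all. Means were 20.4 ± 3.11 and 14.6 ± 8.59 FPKM (SD, n = 5 each), with a log2 fold change of -0.66 (SE 0.37, 95% interval -1.47 to 0.14, limma adjusted p = 0.813, exact permutation p = 0.175). Leaving out ASK1+hep replicate 3 brought it to -0.30. Of the 100-base stretches of Idi1 transcripts, 21.9% also occurred in transcripts of other genes (Gm13502, Gm48574 and Gm35570), so how the counting split such reads bears on this gene.

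The 6 remaining early enzymes all had log2 fold changes below 0, none past the adjusted threshold. Pmvk, phosphomevalonate kinase, was at 40.9, 30.2, 22.4, 31.5 and 29.1 FPKM in ASK1f/f and at 32.0, 16.9, 35.6, 32.0 and 16.2 FPKM in ASK1+hep livers. Of the ASK1+hep livers 2 lay below the ASK1f/f range and 3 within it, for a log2 fold change of -0.26 (SE 0.24, limma adjusted p = 0.827, exact permutation p = 0.341). Aacs, acetoacetyl-CoA synthetase, which feeds ketone-derived acetoacetate into the pathway, was at 40.3, 16.4, 22.7, 32.5 and 15.1 FPKM in ASK1f/f and at 21.0, 9.51, 53.0, 14.5 and 10.6 FPKM in ASK1+hep livers. ASK1+hep replicate 3 was far above the other ASK1+hep livers, 3 of which lay below all ASK1f/f livers. With all livers the log2 fold change was -0.41 (SE 0.42, limma adjusted p = 0.842, exact permutation p = 0.413), and without ASK1+hep replicate 3 it was -0.79, with an unadjusted limma p of 0.0235. Acat2, the cytosolic thiolase, had means of 28.3 ± 6.61 and 27.1 ± 8.39 FPKM, and Mvk, mevalonate kinase, had 10.2 ± 2.26 and 9.60 ± 3.53 FPKM (ASK1f/f and ASK1+hep, SD, n = 5 each). Fdps, farnesyl diphosphate synthase, was listed at 1.44 ± 0.616 and 1.26 ± 0.555 FPKM. Ggps1, which makes geranylgeranyl diphosphate for protein prenylation, was at 1.85 ± 0.179 and 1.77 ± 0.244 FPKM. The log2 fold changes of these 4 ran from -0.12 to -0.046. Acat2 and Fdps share 28.9% and 21.4% of their 100-base stretches with other genes, and their levels are uncertain to that extent.

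Of the 11 genes of the squalene and sterol steps, 5 had a log2 fold change above 0 and 6 below, with a median of -0.086, and 0 passed the adjusted threshold. Fdft1 (ENSMUSG00000021273, chromosome 14, 63145150 to 63179578, minus strand), squalene synthase and the first enzyme committed to sterols, was at 42.0, 24.2, 32.2, 30.4 and 28.7 FPKM in ASK1f/f and at 40.5, 29.9, 62.6, 35.9 and 23.7 FPKM in ASK1+hep livers. Its order of livers resembled that of Hmgcs1, with the same liver at the top. The log2 fold change was 0.23 (SE 0.23, limma adjusted p = 0.840, exact permutation p = 0.437), and 0.037 without ASK1+hep replicate 3. Exons of Ctsb, a lysosomal protease at a mean of 84.4 FPKM, lie opposite 18.3% of the exon bases of Fdft1, and reads of the 2 genes cannot be told apart there unless strand was used in counting, which is not given in the sources used here. Sqle, squalene epoxidase, was at 24.5, 15.6, 16.9, 17.5 and 21.3 FPKM in ASK1f/f and at 23.5, 15.7, 16.0, 17.0 and 15.5 FPKM in ASK1+hep livers. Replicate 1 was the highest liver of each genotype, and the log2 fold change was -0.12 (SE 0.15, limma adjusted p = 0.860, exact permutation p = 0.429). Lss, which closes squalene epoxide to lanosterol, was at 8.62, 4.82, 4.08, 4.45 and 5.35 FPKM in ASK1f/f and at 5.73, 4.07, 6.18, 4.75 and 3.83 FPKM in ASK1+hep livers. ASK1f/f replicate 1 lay well above all other livers, and the log2 fold change was -0.11 (SE 0.18, limma adjusted p = 0.895, exact permutation p = 0.627).

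Cyp51, lanosterol demethylase, was at 53.6, 39.9, 42.0, 39.6 and 46.8 FPKM in ASK1f/f and at 55.2, 31.8, 32.0, 40.3 and 32.2 FPKM in ASK1+hep livers. Of the ASK1+hep livers 3 lay below all ASK1f/f livers, yet ASK1+hep replicate 1 was the highest of all, and the log2 fold change was -0.23 (SE 0.16, limma adjusted p = 0.813, exact permutation p = 0.222). Nsdhl, a sterol dehydrogenase of the demethylation complex, was at 41.9, 31.6, 25.3, 29.7 and 29.7 FPKM in ASK1f/f and at 35.2, 24.8, 31.1, 28.3 and 19.6 FPKM in ASK1+hep livers. Replicate 1 was again the highest of each genotype, with a log2 fold change of -0.19 (SE 0.17, limma adjusted p = 0.821, exact permutation p = 0.325). Tm7sf2, a sterol reductase, had means of 33.8 ± 7.27 and 31.6 ± 5.05 FPKM, and Msmo1, the methylsterol oxidase, had 34.4 ± 8.21 and 35.2 ± 8.05 FPKM (ASK1f/f and ASK1+hep, SD, n = 5 each). The deposited Tm7sf2 model begins 9347 bases upstream of its RefSeq start. In GENCODE M21, Vps51 on the same strand shares 12.1% of the exon bases of Tm7sf2, and Vps51 was listed at a mean of 0.276 FPKM. How the counting split such reads bears on the level of Tm7sf2. The log2 fold change of Msmo1 was 0.030, and -0.047 when scaled by all reads.

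Hsd17b7 (ENSMUSG00000026675, chromosome 1, 169949535 to 169969241, minus strand), the sterol keto-reductase that works with Nsdhl, had the lowest p of the 29 genes. It was at 17.3, 10.9, 14.4, 12.4 and 10.9 FPKM in ASK1f/f and at 21.6, 18.0, 18.5, 12.9 and 16.8 FPKM in ASK1+hep livers. ASK1+hep replicates 1, 2 and 3 exceeded the highest ASK1f/f liver, and replicates 4 and 5 lay within the ASK1f/f range. Means were 13.2 ± 2.73 and 17.6 ± 3.11 FPKM (SD, n = 5 each), with a log2 fold change of 0.39 (SE 0.16, 95% interval 0.051 to 0.73, unadjusted limma p = 0.0276, adjusted p = 0.813, exact permutation p = 0.0556). The gene ranked 415 of 13261 by p. With 1 liver left out in turn, its unadjusted limma p ran from 0.00723 to 0.0721 and stayed under 0.05 in 5 of the 10 fits.

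The genes of the last steps did not pass the threshold either. Sc5d, the sterol desaturase, was at 58.4, 63.0, 74.4, 87.2 and 71.6 FPKM in ASK1f/f and at 98.1, 66.7, 112, 66.1 and 80.6 FPKM in ASK1+hep livers. ASK1+hep replicates 1 and 3 exceeded all ASK1f/f livers, and unlike most enzymes Sc5d was lowest in ASK1f/f replicate 1. The log2 fold change was 0.24 (SE 0.17, limma adjusted p = 0.816, exact permutation p = 0.230), and 0.13 without ASK1+hep replicate 3. Dhcr7, the reductase that makes cholesterol from dehydrocholesterol, was at 22.5, 15.9, 15.1, 16.3 and 16.2 FPKM in ASK1f/f and at 20.6, 14.5, 19.2, 12.7 and 10.8 FPKM in ASK1+hep livers. Once more ASK1f/f replicate 1 was on top and ASK1+hep replicate 5 at the bottom, with a log2 fold change of -0.16 (SE 0.18, limma adjusted p = 0.847, exact permutation p = 0.437). Ebp, the sterol isomerase, was the enzyme of highest FPKM among the 20 of the synthesis pathway, with means of 95.4 ± 7.84 and 101 ± 21.4 FPKM (ASK1f/f and ASK1+hep, SD, n = 5 each) and a log2 fold change of 0.065 that was -0.014 when scaled by all reads.

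Genes of transport, uptake and esterification gave 2 log2 fold changes above 0 and 3 below among the 5 compared, with a median of -0.0098. Npc1l1, which takes up sterols from gut lumen and bile, was listed at 0.013, 0.014, 0, 0 and 0 FPKM in ASK1f/f and at 0.013, 0.017, 0, 0.030 and 0 FPKM in ASK1+hep livers. These values rest on 6 reads in all 10 livers, at most 2 in any, so no comparison was made. Soat2, which esterifies cholesterol in hepatocytes, was at 18.2, 19.7, 16.0, 16.9 and 18.4 FPKM in ASK1f/f and at 10.8, 25.9, 16.2, 20.9 and 17.9 FPKM in ASK1+hep livers. The ASK1+hep livers were more spread, on both sides of the ASK1f/f livers, and the log2 fold change was -0.0098 (SE 0.19, limma adjusted p = 0.992, exact permutation p = 0.960). Stard4, a soluble sterol carrier, was at 25.1, 13.0, 22.2, 22.3 and 17.9 FPKM in ASK1f/f and at 23.9, 15.2, 20.8, 19.7 and 22.0 FPKM in ASK1+hep livers. The ASK1+hep livers lay within the ASK1f/f range, and the log2 fold change was 0.032 (SE 0.17, limma adjusted p = 0.974, exact permutation p = 0.865), or -0.044 when scaled by all reads. Tmem97, a sterol-responsive membrane protein, had means of 72.9 ± 8.40 and 89.8 ± 39.4 FPKM (ASK1f/f and ASK1+hep, SD, n = 5 each), and its log2 fold change of 0.21 was -0.011 without ASK1+hep replicate 3, where it reached 157 FPKM. Of the 100-base stretches of Tmem97, 13.8% also occurred in transcripts of Gm5809, and its level is uncertain to that extent. Mylip, a ubiquitin ligase that marks lipoprotein receptors for breakdown and is induced by LXR, had 2.81 ± 0.527 and 2.55 ± 1.20 FPKM. Lcat, the secreted enzyme that esterifies cholesterol in plasma lipoproteins, had 298 ± 35.0 and 285 ± 33.4 FPKM, the highest level of the 30 genes per length.

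Ordered by mean FPKM over all livers, Lcat (292), Ebp (98.4), Tmem97 (81.4), Sc5d (77.9) and Insig1 (66.4) led, and Mylip (2.68), Ggps1 (1.81), Fdps (1.35) and Npc1l1 (0.0088) closed the list. Neighbours such as Hmgcs1 (45.0), Insig2 (43.9) and Cyp51 (41.3), or Fdft1 (35.0) and Msmo1 (34.8), differed by less than their SDs. FPKM divides by the deposited gene length, which sums all exon bases, and a long model such as that of Lss (10787 bases) lowers its value.

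The cholesterol genes varied more between livers of the same genotype than most genes. Their median SD of log2(FPKM + 1) within genotype was 0.31, against 0.19 over all 13261 genes. Compared with genes within 1.5-fold of its own mean FPKM, 23 of the 29 lay above the median spread, and Aacs (97.5th percentile), Idi1 (97.3) and Mvd (95.9) lay above the 90th. Ggps1 (8.46) and Lcat (19.3), which are not among the classic sterol-regulated enzymes, lay lowest. Srebf2 itself, at the 37.6th percentile, varied less than most genes of its level.

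**Figure D3:**
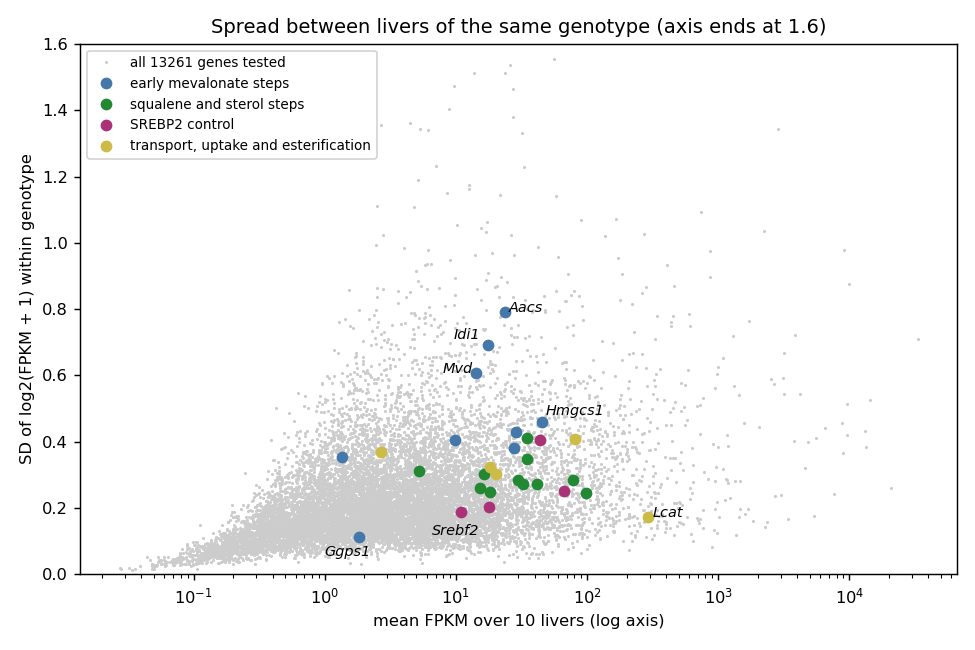
SD of log2(FPKM + 1) within genotype (y axis) against mean FPKM over 10 livers (x axis, log scale) for the 29 cholesterol genes, coloured by role, and all 13261 genes compared (grey), of which 14 lie above the end of the y axis at 1.6. Aacs, Idi1 and Mvd stand highest among the coloured points, and Ggps1 (SD 0.11) and Lcat (SD 0.17) lowest.

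Genes of the same liver shared this spread. ASK1f/f replicate 1 was the highest of all 10 livers for 11 of the 29 genes (9 of the 20 enzymes), and ASK1+hep replicate 3 for 9 (7 enzymes). ASK1+hep replicate 5 was the lowest for 15 (11 enzymes), while ASK1+hep replicate 1 was among the 3 highest for 18. The same counts were not made over all genes. ASK1+hep replicates 3 and 5 also had the lowest median correlations with livers of their own label (0.967 and 0.975), so their extremes may not be particular to the cholesterol genes. The median enzyme of the early steps deviated from the mean of its genotype by 0.45 in ASK1f/f replicate 1, 0.24 in ASK1+hep replicate 1, 0.55 in ASK1+hep replicate 3, -0.32 in ASK1+hep replicate 2 and -0.55 in ASK1+hep replicate 5, on the log2 scale, and by -0.15 to 0.093 in the other 5 livers. For the sterol steps the same livers stood at 0.38, 0.30, 0.28, -0.13 and -0.27. Within the single genotype ASK1+hep, the summed FPKM of the early genes thus ran from 112 to 261. The control genes were divided. Srebf2 and Scap were lowest of all livers in ASK1+hep replicate 5, as most enzymes were, and highest in ASK1+hep replicate 3 and ASK1f/f replicate 1, whereas Insig1 was highest in ASK1+hep replicate 5 and Insig2 was highest in the library labelled ASK1f/f replicate 5.

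**Figure D4:**
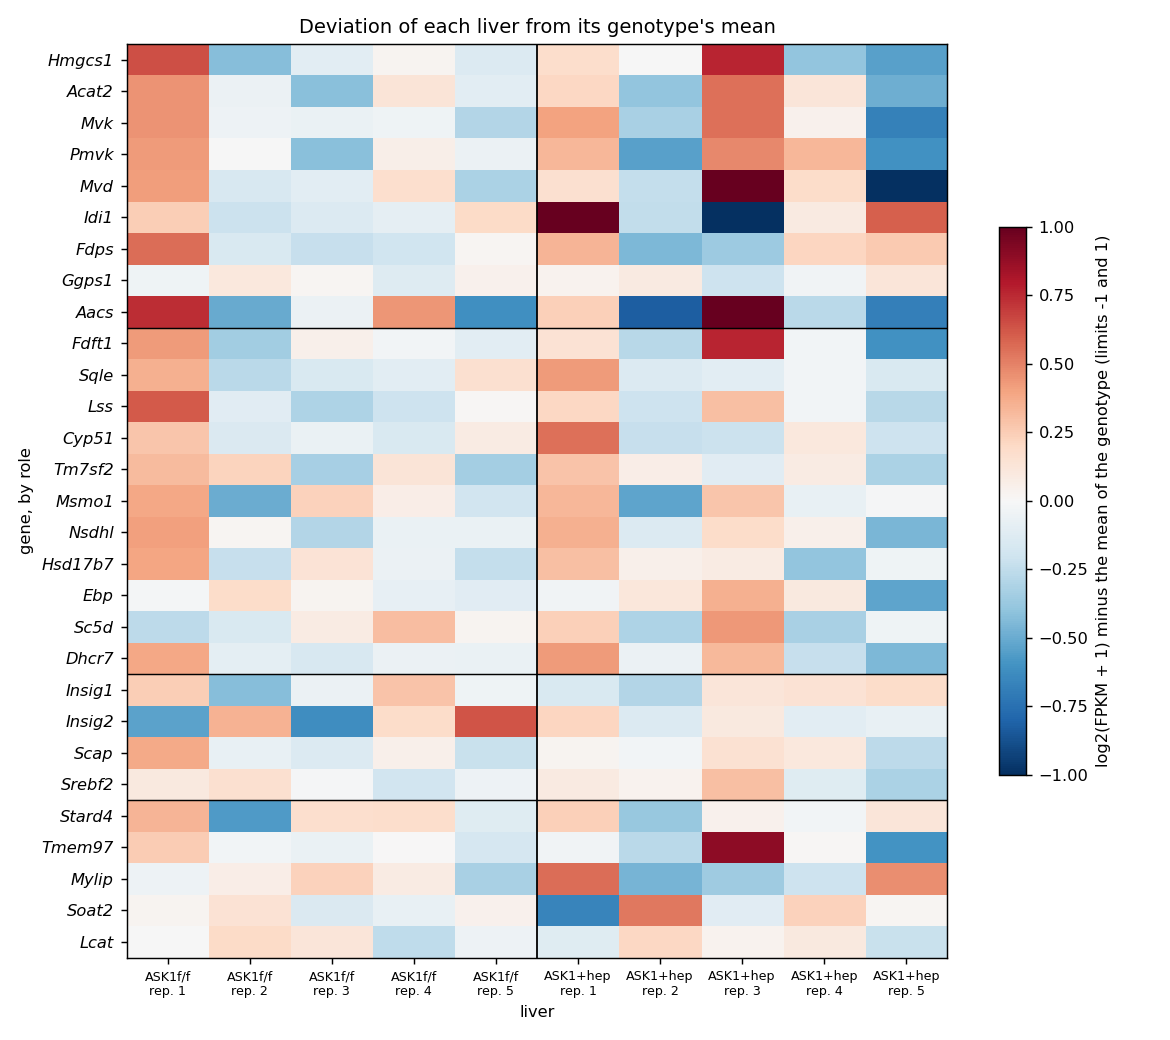
Log2(FPKM + 1) of 29 cholesterol genes (y axis, by role) in each of 10 livers (x axis) minus the mean of the liver's genotype, with red above and blue below that mean and colours limited at -1 and 1. ASK1f/f replicate 1 and ASK1+hep replicate 1 are red down most of the enzymes, ASK1+hep replicate 5 is blue for most, and ASK1+hep replicate 3 is split between dark red (Hmgcs1, Mvd, Aacs, Fdft1, Tmem97) and blue (Idi1, Fdps, Cyp51).

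Replicate 1 of each genotype also carried another animal tag prefix than the other 4 (SN against CC), and what the prefix stands for is not given in the labels. In 20 of the 29 genes (69.0%) the SN liver lay above the mean of the CC livers in both genotypes, against 25.2% of all genes compared, and in 10 of 29 (34.5%) it was the highest liver of both genotypes, against 2.93%. The prefix falls evenly on the genotypes, so as a covariate it leaves every log2 fold change as it is and can alter only the error, and with it 0 of the 29 genes passed the adjusted threshold. With 1 SN liver per genotype, the prefix and the single animals cannot be told apart. Among the markers of the clock, Per2 (7.15 and 4.78 FPKM in ASK1f/f and ASK1+hep) and Cry1 (1.85 and 1.31 FPKM) had lower and Nr1d1 (15.2 and 24.0 FPKM) higher means in ASK1+hep livers at an unadjusted p under 0.05. Over all genes 5.77% passed that limit. Of the 8 clock markers 0 passed the adjusted threshold, and the part of time of day in the liver-to-liver differences was not tested.

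How far the genes moved together was described by the correlation of each with Hmgcs1 on log2(FPKM + 1) after removal of the genotype means, over the 10 livers. All points share the libraries and their scaling, and genes are not independent replicates. The median Pearson r of the other 28 genes was 0.54, against -0.0082 for the 13260 other genes compared, and 14 of 28 (50.0%) were above 0.5, against 17.0% of all. Spearman's rho gave a median of 0.55. Within the 8 CC livers the median r was 0.51, with 14 of 28 above 0.5 against 26.1% of all genes. Without ASK1+hep replicate 3 it was 0.55, and without that liver and ASK1f/f replicate 1, the extremes of Hmgcs1, it was 0.36, with 9 of 28 (32.1%) above 0.5 against 8.60%.

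Most alike among the 28 were Fdft1 (r = 0.91), Dhcr7 (0.87), Aacs (0.86), Mvd and Tmem97 (0.81 each) and Mvk (0.80). All 11 genes of the sterol steps had an r above 0, with a median of 0.61. Early genes fell into a group with r from 0.61 to 0.86 (Acat2, Aacs, Mvk, Pmvk and Mvd) and a group at or below 0, Fdps (-0.0034), Idi1 (-0.42) and Ggps1 (-0.71). Single values rested on ASK1+hep replicate 3 in both directions. Without that liver r rose to 0.33 for Idi1, to 0.38 for Fdps, from 0.23 to 0.62 for Cyp51 and from 0.46 to 0.77 for Sqle, but dropped from 0.40 to 0.0063 for Sc5d, from 0.48 to 0.17 for Ebp and from 0.66 to 0.42 for Srebf2. Srebf2 (0.66) and Scap (0.73) were nearer to Hmgcs1 than Insig1 (0.29) and Insig2 (-0.20). Soat2 (-0.29), Mylip (-0.28) and Lcat (-0.013) were at or below 0.

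**Figure D5:**
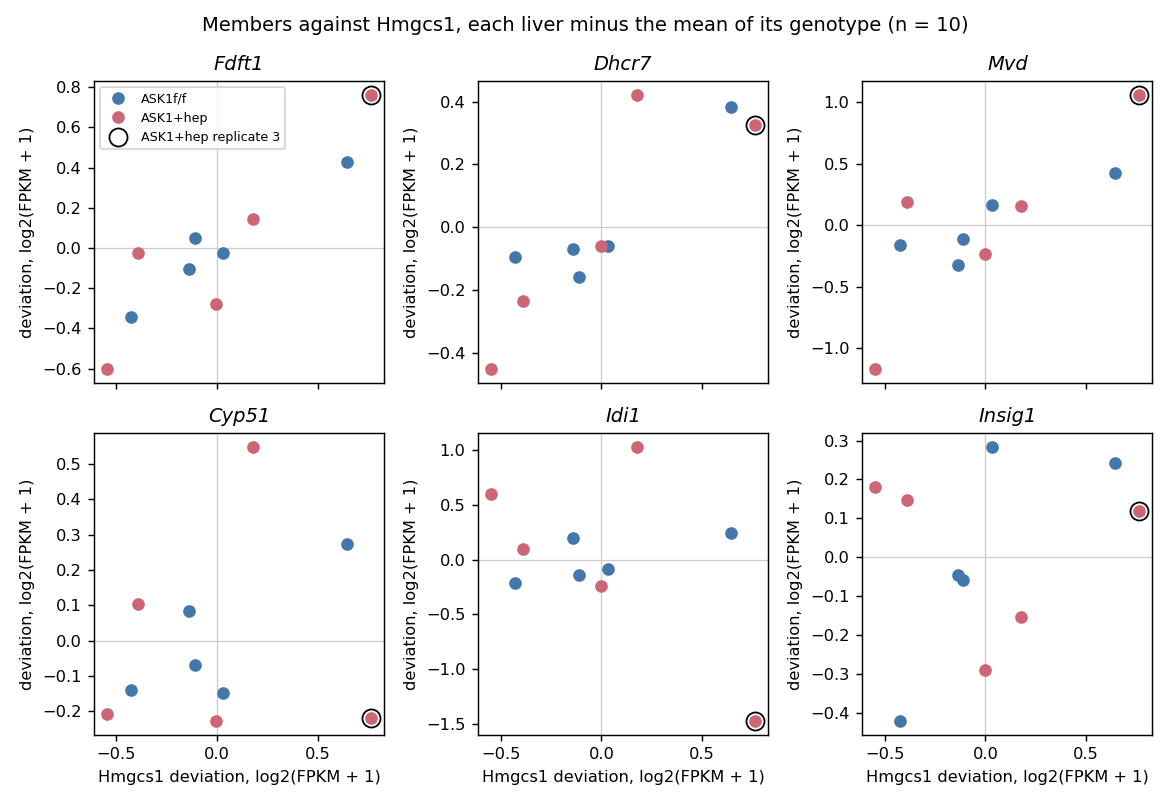
Deviation of 6 cholesterol genes (y axes) against that of Hmgcs1 (x axes), both as log2(FPKM + 1) minus the mean of the genotype, with 1 point per liver (blue ASK1f/f, red ASK1+hep, n = 10) and a ring around ASK1+hep replicate 3. Fdft1 (r = 0.91), Dhcr7 (0.87) and Mvd (0.81) rise with Hmgcs1 in both genotypes, and in the panels of Cyp51 and Idi1 the ringed liver lies apart from the rest.

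Over all genes with a mean of at least 1 FPKM, the 10 with the highest r with Hmgcs1 were Zfp362 (0.96), Lpcat3 (0.93), Pdk2 (0.93), Gm4149 (0.93), Izumo4 (0.91), Fdft1 (0.91), Faah, Cys1, Eepd1 and 4732419C18Rik (0.90 each). Fdft1 was the 1 cholesterol gene among them. Lpcat3, which remodels phospholipids, and Pdk2, a kinase of pyruvate dehydrogenase, had means of 33.6 and 48.4 FPKM.

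Genes next to the pathway were read from 4 lists, and 0 of their members passed the adjusted threshold. Of 7 genes of SREBP processing and sterol sensing, 4 had a log2 fold change above 0 and 3 below (median 0.029). Rnf145, a ubiquitin ligase that acts on SCAP, had means of 2.04 and 2.77 FPKM in ASK1f/f and ASK1+hep livers (log2 fold change 0.30, SE 0.11, limma adjusted p = 0.813). Of 8 genes of the isoprenoid branches, 3 lay above and 5 below 0 (median -0.065). Of 21 genes of sterol efflux, storage and breakdown, 13 lay above and 8 below 0 (median 0.014). In that list Cyp8b1, which sets the share of cholic acid among bile acids, had means of 245 and 348 FPKM (log2 fold change 0.48, limma adjusted p = 0.813), and Npc2, a lysosomal sterol carrier, had 11.3 and 9.14 FPKM (log2 fold change -0.28, limma adjusted p = 0.813). Of 14 genes of fatty acid synthesis under SREBP1, 8 lay above and 6 below 0 (median 0.054). Acly, which supplies cytosolic acetyl-CoA to both fatty acid and cholesterol synthesis, was at 41.8, 31.6, 40.6, 37.5 and 38.9 FPKM in ASK1f/f and at 39.8, 24.0, 18.5, 21.7 and 28.3 FPKM in ASK1+hep livers. All ASK1+hep livers but replicate 1 lay below the ASK1f/f range, with a log2 fold change of -0.55 (SE 0.18, limma adjusted p = 0.813). Rnf145, Cyp8b1, Npc2 and Acly are the genes of these lists with an unadjusted p under 0.05, a limit that 5.77% of all genes passed. By list they were 1 of 7, 0 of 8, 1 higher and 1 lower of 21, and 1 of 14.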

How the data were processed

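Liver RNA of 10 mice was sequenced. By the paper's methods, poly-A RNA was purified, cleaned reads were aligned by Hisat2, and FeatureCounts assigned them to genes. The authors deposited FPKM, in which reads are divided by gene length and by a library size that matches median-ratio size factors. The labels name fastp. Build, annotation release and strand setting are not given in the sources used here. GENCODE M21 (GRCm38) held 54409 of the 54532 genes, 98.3% of them at the same position, and 29 of the 30 cholesterol genes (all but Tm7sf2) at the same position. The authors' DESeq2 test was not rerun, although whole reads could be recovered from the FPKM as described below.

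FPKM times gene length gave whole reads (within 0.01) for 100% of values, hence the depth of 13367742 to 16163378 reads per library. Precision was judged from the spread between livers. Genes entered the comparison when 5 or more livers had 10 or more reads (at the depth of the median library) and all livers together 15 or more. Genotypes, taken from the labels, were compared on log2(FPKM + 1) with limma 3.58.1 (R 4.3.3), with the variance trended on the mean and p-values adjusted by Benjamini-Hochberg over 13261 genes. Single genes were also compared with two-sided exact permutation tests over all splits into 5 and 5, whose p-values are unadjusted. On simulated data for 13261 genes, 87% of 200 genes changed by a log2 fold change of 2 were recovered, 5.43% of 184 calls were false, and 0 genes were called when none was changed. Each simulated gene varied on its own, and the log2 fold changes of the 29 cholesterol genes were smaller, -0.66 to 0.39. The recovery therefore does not say how many changes of that size would be found. In the real data Fgf21, at 2.06, was not called. No library pair was near sampling noise (lowest chi-square per degree of freedom 19.1).

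The cholesterol genes, the gene lists and the tests were chosen with earlier results of these data known. Values in every liver are given for the control genes, for enzymes along the pathway, for Npc1l1, Soat2 and Stard4, and for the 6 other genes with the lowest limma p. Acly was chosen after its values were seen. As alternatives, the filter was dropped or raised to 10 reads in every liver, the pseudocount was set to 0.1, limma-voom was run plain and with sample quality weights, libraries were scaled by all reads, replicate number or animal tag prefix entered the fit, and each liver was left out. Leaving out ASK1+hep replicate 3 and the library labelled ASK1f/f replicate 5 together, and the alternatives for the correlations, were chosen after seeing the data. Promoter windows came from RefSeq (GRCm38.p6). Figures were drawn with matplotlib 3.10.9. Plasma, adipose tissue and other measurements of the study were not analysed here.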

Additional observations from a re-analysis of the deposited data

Results flagged for a closer look

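In 7 of the 58 groups examined (29 genes in 2 genotypes), 1 liver was so far from the other 4 that its gap to the nearest exceeded 0.71 of the group's range. Gaps were measured on FPKM, and on the log2 scale a gap at the top of a group takes a smaller part of the range. Chance alone gives such a gap in about 1 in 20 groups of normally distributed values. The 29 genes also move together, so these are not 7 separate events. In 4 genes the liver was ASK1f/f replicate 1. Its FPKM was 14.0 for Mvk (next highest 9.65), 2.51 for Fdps (next 1.42), 8.62 for Lss (next 5.35) and 22.5 for Dhcr7 (next 16.3). Sqle was at 23.5 FPKM in ASK1+hep replicate 1, where the next liver had 17.0 FPKM. ASK1+hep replicate 3 was at 157 FPKM for Tmem97 (next 84.7) and at 53.0 FPKM for Aacs (next 21.0). On FPKM, a scale that stretches high values, all 7 were the highest and none the lowest liver of its group. In 5 of them it was the liver with the SN tag prefix. What sets these livers apart was not tested.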

How the results depend on the processing

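In all 19 alternative settings 0 of the 29 cholesterol genes passed the adjusted threshold, and the lowest adjusted p of any of them was 0.382. Of these settings, both filter changes, the replicate block and the tag prefix can alter no gene's log2 fold change. Over all genes, 1 was called with limma-voom and sample quality weights, 0 to 1 with 1 liver left out (1 without ASK1+hep replicate 5), and 3 without both ASK1+hep replicate 3 and the library labelled ASK1f/f replicate 5. At an unadjusted p under 0.05, 1222 genes passed without a filter and 553 to 1722 with 1 liver left out (lowest without ASK1f/f replicate 2, highest without ASK1+hep replicate 5), against 765. Of the cholesterol genes, 0 passed that limit when scaled by all reads, 0 to 2 with 1 liver left out, and 1 (Aacs) with quality weights. Of all 13261 genes, 857 passed it when scaled by all reads and 968 with quality weights. Same-numbered livers deviated together only weakly (correlations 0.022 to 0.174, mean 0.108, and -0.0277 between different numbers), and 6 of the 10 livers correlated best with their own number. In 4 of the 5 same-numbered pairs the animal tags are consecutive numbers, and by the paper the controls were littermates, but the labels do not say which mice shared a litter or what a number marks. The numbers were therefore not taken as pairs, and a shared litter cannot be set aside. With the replicate block, 0 of 29 passed the adjusted threshold and 3 passed the unadjusted limit (Hsd17b7, Idi1 and Insig1), against 874 of all 13261 genes. The exact sign-flip permutation test of the pairs, which cannot go below 0.0625 with 5 pairs, left every cholesterol gene above 0.05. The median log2 fold change of the 29 ran from -0.073 (without the library labelled ASK1f/f replicate 5) to 0.022 (without ASK1f/f replicate 1) and was -0.14 when scaled by all reads, where that of all genes moved from -0.0065 to -0.052.

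Of the 29 genes 16 kept the sign of their log2 fold change in all settings, though the filter changes, the replicate block and the tag prefix could not turn a sign. With quality weights it turned for Ggps1 (0.0032), Msmo1 (-0.079), Stard4 (-0.061), Soat2 (0.027) and Lcat (0.0045), and when scaled by all reads for Msmo1 (-0.047), Ebp (-0.014), Scap (-0.049) and Stard4 (-0.044). Without both ASK1+hep replicate 3 and the library labelled ASK1f/f replicate 5 it turned for Mvd (-0.013), Ggps1 (0.018), Msmo1 (-0.087), Ebp (-0.051), Scap (-0.066), Stard4 (-0.010), Tmem97 (-0.052) and Soat2 (0.030). With 1 liver, or both of these libraries, left out the log2 fold change ran from -0.25 to 0.040 for Acat2, -0.33 to 0.048 for Mvk, -0.20 to 0.022 for Fdps, -0.079 to 0.018 for Ggps1, -0.18 to 0.046 for Lss, -0.013 to 0.62 for Mvd, -0.093 to 0.16 for Msmo1, -0.051 to 0.20 for Ebp, -0.066 to 0.12 for Scap, -0.11 to 0.13 for Stard4, -0.052 to 0.36 for Tmem97 and -0.14 to 0.16 for Soat2. The median r with Hmgcs1 ran from 0.52 to 0.59 with 1 liver left out, and was 0.49 with genotype means kept, 0.51 within the CC livers and 0.36 without both extremes of Hmgcs1. The causes were not tested. Counting error is small beside the spread between livers except for genes of few reads, such as Fdps (33 to 176 reads) and Npc1l1.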
